A study of Mus musculus with 2 samples.

Results

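The 10 genes described here encode chaperones and chaperone partners of the cytosol and of the mitochondrial matrix. They were chosen by symbol from a list (Hspa8, Hsph1, Hspa4l, Dnaja1, Dnajb1, Hsp90aa1, Hsp90ab1, Cacybp, Hspd1 and Hspe1), and all 10 were found among the 32285 genes of the deposited table. Nuclei came from the hippocampus of C57BL/6J mice, and the labels name no engineered allele. The mice were injected on postnatal day 0, into the cerebral ventricles on both sides, with an adeno-associated virus and were studied at 6 weeks of age. AAV-STOP, the control virus, encodes a MAPT transcript of human origin whose early stop codon prevents translation into tau. AAV-TAU encodes unmutated human tau, full length, in the 2N4R isoform, so mice of both groups received a virus and a human MAPT transcript. The promoter of the vector is not given in the sources used here. A further form of the vector that the design text counts was not analysed here, and neither was the human transcript itself.

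Hippocampi of 3 mice were pooled into 1 library per group, so the spread between mice is unknown and no test between groups was possible. The intervals below are exact 95% intervals of counts and of ratios of counts, and they cover counting error only. Nuclei were captured on a droplet chip and each transcript was counted through a unique molecular identifier (UMI). The AAV-STOP library held 17784 nuclei after filtering with a median of 5589 UMIs, and the AAV-TAU library held 17214 nuclei with a median of 4950. Mitochondrial UMIs made up a median of 0.172% per nucleus in the control library and 0.280% in the other. Levels are given as counts per 1000000 UMIs (CPM) of all nuclei of a cell class in 1 library, and a ratio is the AAV-TAU level over the AAV-STOP level. Classes were named from marker genes, and 13 classes had at least 100 nuclei in both libraries. The libraries shared 116 barcodes, 85 of them among the nuclei kept. The classes ranged from dentate granule neuron-like nuclei (5285 in AAV-STOP, 4207 in AAV-TAU) to Cajal-Retzius neuron-like nuclei (119 and 167). The suffix is dropped in what follows. The microglia class also had the border macrophage gene F13a1 among its leading genes.

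Molecular chaperones bind proteins that are not yet folded or have lost their fold. HSP70 proteins hold and release short greasy stretches of a client in a cycle driven by ATP, J-domain proteins deliver clients to them, and exchange factors such as the HSP110 family reset the cycle. HSP90 takes over clients that are nearly folded, among them many kinases and steroid receptors, and in neurons both machines are known to bind tau. In mitochondria the HSP60 ring and its HSP10 lid enclose and fold imported proteins. Many of these genes are basally expressed in every cell and are raised further by heat shock factor 1, which binds inverted repeats of the unit GAA upstream of its targets.

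Promoter sequences from RefSeq (build GRCm38.p6) were available for 7 of the 10 genes, in 12 windows, and not for Hspa8, Hsp90aa1 and Hsp90ab1. The 250 bases before each start site were searched for a pair of inverted units, GAANNTTC or TTCNNGAA, each of which reads the same on both strands. Such a pair stood upstream of Hsph1, Dnaja1, Hspd1 and Hspe1 (4 of 7 genes) and in 14.5% of all 27025 genes with an entry. No match to these letters was in the windows of Hspa4l, Dnajb1 and Cacybp. The longer run of 3 inverted units at the same spacing (GAA, TTC and GAA, or TTC, GAA and TTC, with 2 bases between units) overlaps the shorter motif, was searched on both strands and was present in 0.514% of all genes. Among the 7 members with an entry it was present only between Hspd1 and Hspe1. These genes lie head to head and share the site, so each strand of the same 30 bases is upstream of one of them. The sites are shown because they are the part of the promoters that the heat shock factor motif marks, with the units GAA and TTC in capitals and all sequences 5′ to 3′.
Hspe1, chr1:55088053-55088082, plus strand: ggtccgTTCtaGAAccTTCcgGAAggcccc
Hspd1, chr1:55088053-55088082, minus strand: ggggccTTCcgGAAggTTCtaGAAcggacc
Hsph1, chr5:149636351-149636380, minus strand: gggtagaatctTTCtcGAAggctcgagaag
Dnaja1, chr4:40722333-40722362, plus strand: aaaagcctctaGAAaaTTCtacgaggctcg
The Hspe1 site begins 89 bases before the Hspe1 start site at position 55088148, and it begins 144 bases before the Hspd1 start site at 55087932. The annotation also holds an Hspd1 transcript whose first exon reaches out to 55088243, and the site lies in that exon. The Hsph1 site begins 33 bases before the start site at 149636336 and overlaps the first exon of a longer Hsph1 transcript. The Dnaja1 site begins 124 bases before the start site at 40722468 and lies in an exon of a longer Dnaja1 transcript and of Gm6297 on the opposite strand. The windows of the other 2 Dnaja1 start sites held no match. A match describes the letters of these windows, and binding was not measured.

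Read over all 10 genes together, the chaperone level was higher in AAV-TAU than in AAV-STOP in each of the 13 classes. The summed level went from 1086 CPM in AAV-STOP to 1544 CPM in AAV-TAU in granule neurons, a ratio of 1.42 (95% interval 1.40 to 1.44). CA1 neurons gave 949 and 1346 CPM, with a ratio of 1.42 (1.39 to 1.45). Oligodendrocytes gave 2065 and 2995 CPM, with a ratio of 1.45 (1.41 to 1.49). The ratio was close to this size in inhibitory neurons (1135 and 1622 CPM, ratio 1.43), in astrocytes (1875 and 2708 CPM, 1.44) and in microglia (2615 and 3773 CPM, 1.44). CA3 neurons gave a smaller ratio of 1.34 (1.30 to 1.37), from 897 to 1199 CPM. CA2 neurons, with 197 and 118 nuclei, gave the smallest, from 905 to 1024 CPM (1.13, 1.05 to 1.22). Newly formed oligodendrocytes also gave a smaller ratio, from 1244 to 1645 CPM (1.32, 1.22 to 1.43). The CA2 value moved with the handling of nuclei. Its log2 ratio was 0.18, it was 0.40 with marked doublets kept, where newly formed oligodendrocytes were lowest at 0.38, and it was 0.29 after thinning each nucleus to 1500 UMIs. The intervals of CA3 and CA2 do not reach those of granule and CA1 neurons, although whether mice differ by this much is not known. Clusters 29, 35 and 36 were led by microglial genes (Inpp5d, Dock8, Ly86 and Fli1) but were not named, 29 and 35 because of neuronal RNA and 36 because of a small lead over oligodendrocyte markers, and so stand outside the microglia class of 203 and 567 nuclei. They held 148, 52 and 42 nuclei in AAV-STOP, with chaperone levels of 1272, 976 and 2079 CPM, and 9, 0 and 0 nuclei in AAV-TAU. The part of their absence from the class in the microglia ratio was not tested.

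Malat1, an RNA kept in the nucleus, took a smaller share of UMIs in AAV-TAU in 11 of the 13 classes. In granule neurons the control share of 8.29% compared with 7.89% in AAV-TAU, and in CA3 neurons 12.7% with 11.7%. It was larger in AAV-TAU in CA2 neurons (13.9% and 14.9%) and slightly so in newly formed oligodendrocytes, the classes with the smallest chaperone ratios. Its part in the chaperone result was not tested.

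A gene was counted as past the fold when its log2 ratio, with 5 CPM added to both levels, was at least 0.32, and as past it in the other direction when it was as far below 0. The background is the share of genes that met a rule among those with at least 100 UMIs and 20 CPM in whichever library had more. The members are counted whether or not they passed this filter: 9 passed it in each of the 7 largest classes, 8 in oligodendrocyte precursors, 6 in immature neurons and in microglia, 5 in CA2 neurons and 4 in newly formed oligodendrocytes and in Cajal-Retzius neurons. In granule neurons 9 of the 10 members were past the fold, against 4.75% of 7069 genes. All 10 were higher, against 68.1% of genes, and all 10 had an interval of the ratio above 1, against 33.3%. In CA1 neurons 9 were past the fold (4.57% of genes), 10 were higher (66.6%) and 10 had an interval above 1 (26.4%). In these large neuronal classes a small difference upward was common among genes and a difference past the fold was not. Subicular or cortical neurons had 7 past the fold (5.33%), 10 higher (66.8%) and 9 with an interval above 1 (23.4%). Inhibitory neurons had 7 past the fold (5.75%), 10 higher (61.5%) and 9 with an interval above 1 (17.2%). CA3 neurons had fewer members past the fold, 4 (5.82%), with 10 higher (67.5%) and 9 with an interval above 1 (23%).

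In oligodendrocytes, astrocytes, oligodendrocyte precursors and microglia the background past the fold was higher than in those 5 neuronal classes. Oligodendrocytes had 8 members past the fold (14%), 9 higher (59.1%) and 8 with an interval above 1 (20.1%). Astrocytes had 8 past the fold (15.5%), 10 higher (58.3%) and 9 with an interval above 1 (15.6%). Oligodendrocyte precursors had 7 past the fold (11.7%), 10 higher (49.7%) and 6 with an interval above 1 (13%). The microglia background was the highest of the 13 classes, with 7 members past the fold (22.4%), 10 higher (72.5%) and 5 with an interval above 1 (14.5%). In the smaller classes the counts were uneven. Immature neurons had 9 past the fold (8.84%), 10 higher (42.8%) and 7 with an interval above 1 (9.55%). Cajal-Retzius neurons had 8 past the fold (11.9%), 8 higher (48.6%) and 4 with an interval above 1 (10.3%), and 1 member, Dnajb1, past the fold in the other direction (10.1%). Newly formed oligodendrocytes had 4 past the fold (5.77%), 7 higher (39.7%), 3 with an interval above 1 (6.94%) and 1, Cacybp, past the fold in the other direction (9.52%). CA2 neurons had 0 past the fold (1.9%), 6 higher (31.4%) and 1 with an interval above 1 (4.55%), and 0 past the fold in the other direction (10.2%). Over the 130 pairs of gene and class, 120 were higher in AAV-TAU, 90 had an interval above 1 and 0 had an interval below 1. Among all genes the share higher ran from 31.4% to 72.5% by class, and the share with an interval above 1 from 4.55% to 33.3%. The abundance filter was passed in 96 of the 130 pairs. Dnajb1 did not pass it in any class, yet was past the fold, higher in AAV-TAU, in 6 classes. Other members past the fold without passing the filter were Hspa4l, Cacybp and Hspe1 in immature neurons and Hspa4l in microglia. In Cajal-Retzius neurons they were Hsph1, Hspa4l, Cacybp and Hspd1. In newly formed oligodendrocytes it was Cacybp, in the other direction.

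The median log2 ratio over the 10 members was 0.43 in granule neurons, beside 0.05 over all genes that passed the filter. It was 0.42 in CA1 neurons, 0.30 in CA3 neurons and 0.52 in oligodendrocytes, where all genes had medians of 0.05, 0.06 and 0.04. In CA2 neurons it was 0.17, beside a median of -0.07 over all genes.

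**Figure D1:**
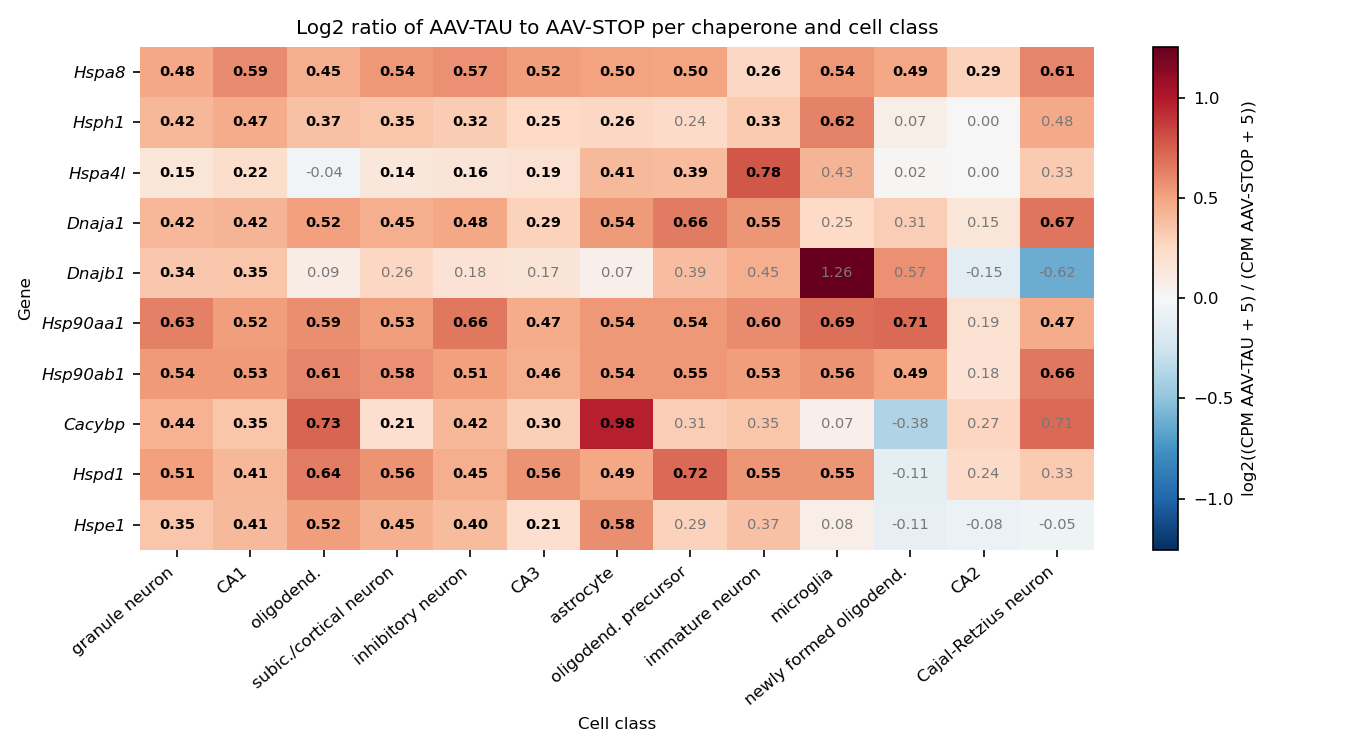
Log2 ratio of AAV-TAU to AAV-STOP, computed on CPM + 5, for each of the 10 genes (rows) in each of the 13 classes (columns), with colour from blue (lower in AAV-TAU) to red (higher). Bold black values have a 95% counting interval above a ratio of 1 (90 of 130 squares), grey values do not, and the CA2 column runs from -0.15 to 0.29.

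Gene span went with the ratio. In granule neurons, genes that span under 5 kb in the annotation had a median log2 ratio of 0.28 and 41.0% of them were past the fold. Genes of 5 to 20 kb had a median of 0.12 (9.36% past the fold), and genes over 100 kb a median of -0.03. In oligodendrocytes the same medians were 0.35, 0.14 and -0.04. In both classes the median was lower in each longer group of genes. CA2 neurons had medians of 0.01, -0.08 and -0.06 and did not show these steps. Hspe1 (3.18 kb) and Dnajb1 (4.46 kb) fall in the shortest group. In granule neurons both were above its median (0.35 and 0.34), and in CA2 neurons both were below it (-0.077 and -0.15). In oligodendrocytes Hspe1 was above it (0.52) and Dnajb1 below it (0.093). Hsp90ab1, Hspa8, Hspd1, Cacybp, Hsp90aa1 and Dnaja1 span 5.5 to 15 kb, and all 6 were above the median of their span group in granule, CA1, oligodendrocyte and CA2 nuclei. In microglia that median was 0.29, and Dnaja1 (0.25) and Cacybp (0.065) were below it. In newly formed oligodendrocytes it was 0.085, and Hspd1 (-0.11) and Cacybp (-0.38) were below it. In both classes the other members of that span group were above it. When each class was scaled by the median ratio of genes under 5 kb, a choice made after seeing the data, the summed log2 ratio went from 0.51 to 0.26 in granule neurons and from 0.54 to 0.16 in oligodendrocytes. It was above 0 in all 13 classes, from 0.11 to 0.33, and of the 130 pairs of gene and class 99 were above 0, against 120 without this scaling. The share of all genes above 0 under this scaling was not computed. Without it that share ran from 31.4% to 72.5% by class. The part of gene span in the chaperone result was not tested beyond this.

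**Figure D2:**
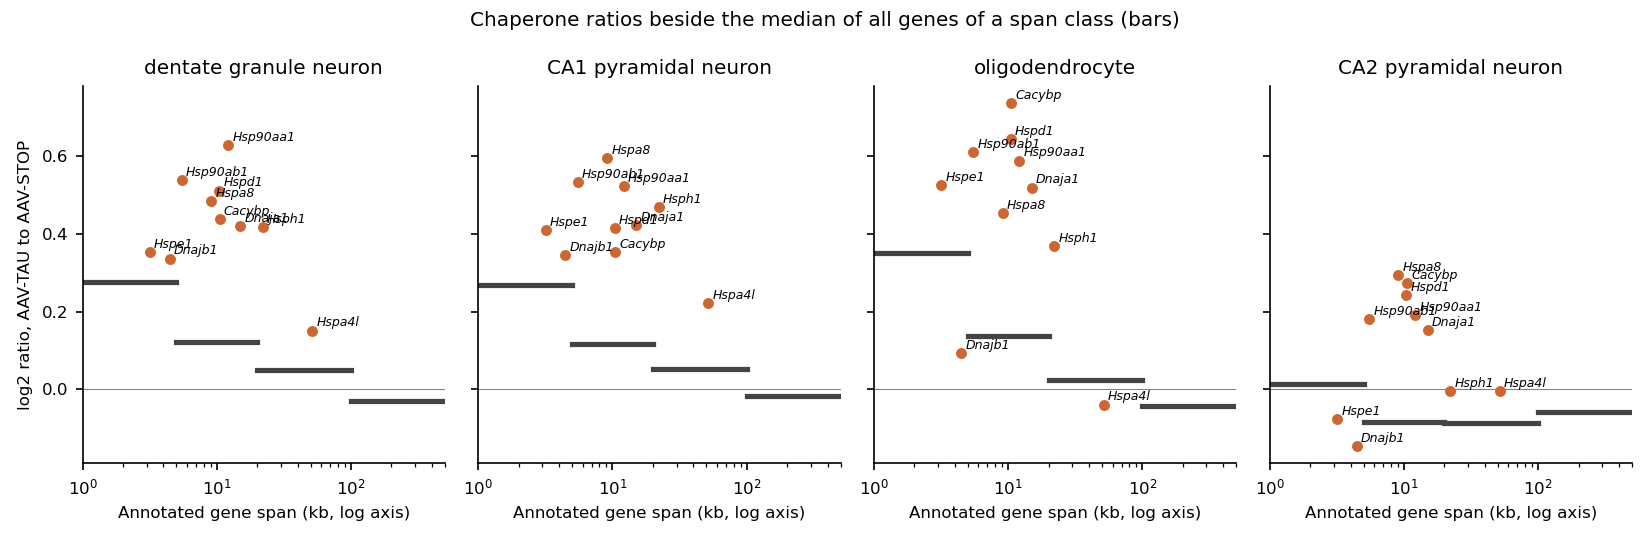
Log2 ratio of AAV-TAU to AAV-STOP (vertical axis) against the annotated span of the gene in kb (log axis) in 4 classes. Points are the 10 chaperone genes and dark bars are the medians of all genes under 5 kb, of 5 to 20 kb, of 20 to 100 kb and over 100 kb, so that in granule neurons the bars step down from 0.28 to -0.03 while Hsp90aa1 stands at 0.63.

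Hspa8 encodes the constitutive HSP70 of the cytosol, which also strips clathrin from vesicles and carries proteins to the lysosome. It lies at chr9:40800984-40810087 on the plus strand (mm10). Its level in granule neurons was 208 CPM in AAV-STOP and 292 CPM in AAV-TAU, a ratio of 1.41 (1.36 to 1.46). In CA1 neurons it was 156 and 238 CPM (1.53, 1.45 to 1.60), and in inhibitory neurons 209 and 314 CPM (1.50, 1.41 to 1.59). Each of these intervals lies above 1, and the intervals of the levels do not overlap. In oligodendrocytes the level was 439 and 603 CPM (1.37, 1.30 to 1.45). Microglia had the highest levels, 593 CPM in AAV-STOP and 865 CPM in AAV-TAU (1.46, 1.28 to 1.67). Hspa8 was higher in AAV-TAU with an interval above 1 in all 13 classes, CA2 neurons among them (150 and 185 CPM, 1.23, 1.03 to 1.48). The immature neuron value was among the smaller ones (386 and 462 CPM, log2 ratio 0.26), and it was -0.095 when scaled by the genes under 5 kb. In CA2 neurons the log2 ratio of 0.29 became -0.025 once nuclei were thinned to 1500 UMIs.

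Across classes in AAV-STOP Hspa8 stood highest in microglia, oligodendrocytes, astrocytes and Cajal-Retzius neurons and lowest in CA3, CA2 and CA1 neurons. In AAV-TAU Cajal-Retzius neurons came second (617 CPM), and CA2 (185 CPM), CA3 (206 CPM), subicular or cortical (230 CPM) and CA1 neurons (238 CPM) were lowest. From top to bottom the level differed 4.18-fold in AAV-STOP and 4.67-fold in AAV-TAU. Of the 12 neighbouring pairs in this order, 9 had overlapping intervals in AAV-STOP and 6 in AAV-TAU, so only the larger steps of the order are set apart by the counts.

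Hsph1 encodes HSP110, an exchange factor of HSP70 that also works with it to take aggregates apart. It lies at chr5:149614287-149636376 on the minus strand. Granule neurons had 65.1 CPM in AAV-STOP and 88.6 CPM in AAV-TAU (1.36, 1.28 to 1.45), and CA1 neurons 65.5 and 92.5 CPM (1.41, 1.31 to 1.53). Both intervals lie above 1. Microglia showed 108 and 169 CPM on 54 and 195 UMIs (1.57, 1.15 to 2.16). The ratio in CA3 neurons was smaller (67.1 and 80.6 CPM, 1.20, 1.08 to 1.34). CA2 neurons had 59.8 and 59.6 CPM, with an interval that reached from 0.726 to 1.36. The interval was above 1 in 9 of 13 classes. In astrocytes and immature neurons the log2 ratios of 0.26 and 0.33 became -0.020 and -0.013 under scaling by genes below 5 kb.

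Hspa4l encodes a second protein of the HSP110 family. It is the longest of the 10 genes, at 51.6 kb (chr3:40744495-40796103, plus strand). Its level was 47.8 CPM in AAV-STOP and 53.6 CPM in AAV-TAU in granule neurons (1.12, 1.04 to 1.21), and 72.1 and 84.9 CPM in CA1 neurons (1.18, 1.09 to 1.27). In oligodendrocytes it was 83.5 and 81.2 CPM (0.972, 0.842 to 1.12). In each of these classes this was the smallest log2 ratio of the 10 members. Scaled by the genes under 5 kb, the log2 ratio of Hspa4l was below 0 in granule (-0.075), CA1 (-0.027), CA3 (-0.058), inhibitory (-0.094) and subicular or cortical neurons (-0.12). In astrocytes it had 72.7 and 97.9 CPM (1.35, 1.07 to 1.70) and in oligodendrocyte precursors 58.5 and 78.4 CPM (1.34, 1.04 to 1.73), and both were past the fold. The microglia value was 56.1 and 77.3 CPM (1.38, 0.892 to 2.19). Immature neurons had the highest ratio, with 41.8 and 75.3 CPM (1.80, 1.30 to 2.51) on 64 and 95 UMIs. Its order across classes was also its own: subicular or cortical neurons had the highest level in AAV-STOP (93.0 CPM) and immature neurons the lowest. All 12 neighbouring pairs of classes had overlapping intervals in both libraries. Over the 13 classes, the correlation of log2(CPM + 5) between 2 members had a median of 0.891 for AAV-STOP and 0.909 for AAV-TAU. The lowest coefficient for AAV-STOP, -0.187, was that of Hspa4l with Dnaja1. These points share library and depth by class, so the coefficients are a description.

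**Figure D3:**
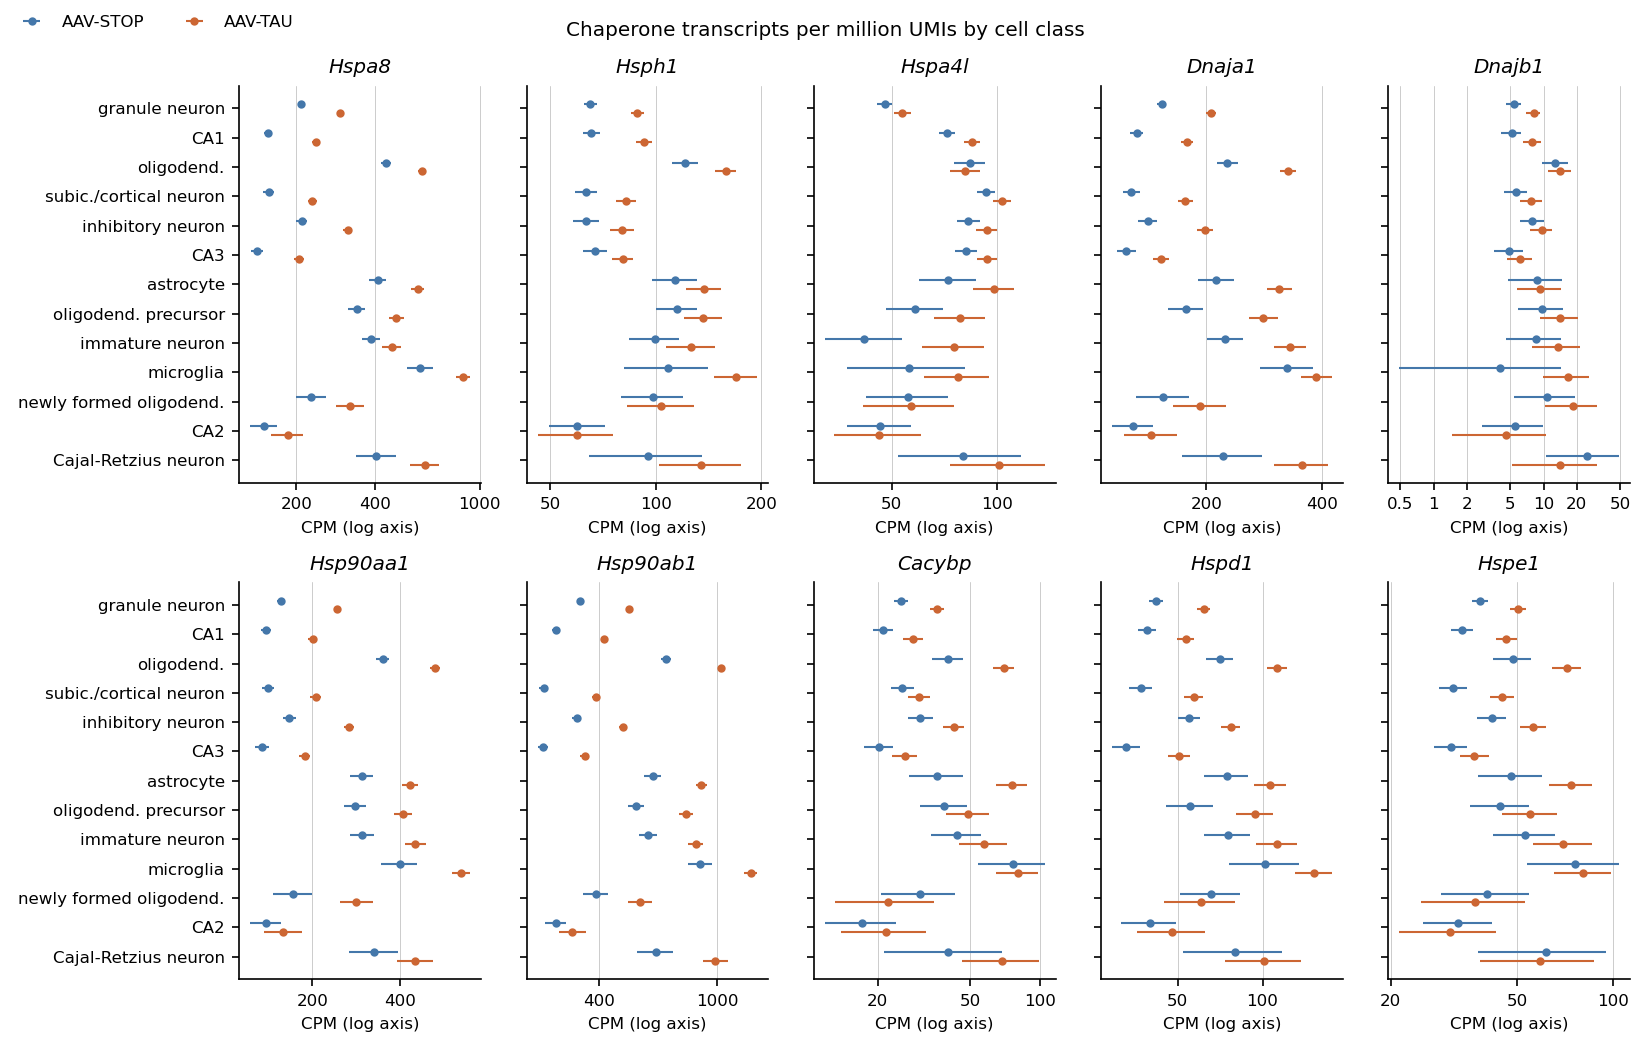
Level of each of the 10 chaperone genes in CPM (log axis, with a range of its own in each panel) in 13 cell classes, blue for AAV-STOP and orange for AAV-TAU, with bars for exact 95% Poisson intervals. The orange point lies to the right in 120 of 130 pairs, where 31.4% to 72.5% of all genes were higher by class. Hspa4l lacks the high glial levels that the Hspa8 and HSP90 panels show.

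J-domain proteins bring clients to HSP70 and start its ATP cycle. Dnaja1, a widely expressed partner of Hspa8, lies at chr4:40722150-40737149 on the plus strand, and 608 bases of it overlap Smu1 on the opposite strand. Granule neurons held 153 CPM in AAV-STOP and 206 CPM in AAV-TAU (1.35, 1.29 to 1.40). Oligodendrocyte precursors held 177 and 282 CPM (1.59, 1.39 to 1.83), and astrocytes 212 and 310 CPM (1.46, 1.28 to 1.67). In all 3 classes the levels are apart by more than counting error. CA3 neurons gave 124 and 152 CPM (1.23, 1.14 to 1.33). The microglia interval included 1 (325 and 387 CPM, 1.19, 0.995 to 1.44), as did that of CA2 neurons (129 and 144 CPM, 1.12, 0.910 to 1.37). The log2 ratio of Dnaja1 was above 0 in all 13 classes.

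Dnajb1, or HSP40, is the classical stress-induced partner of HSP70 and lies at chr8:83608193-83612653 on the plus strand. It was scarce. Its level was 5.38 CPM in AAV-STOP and 8.11 CPM in AAV-TAU in granule neurons, from 163 and 184 UMIs (1.51, 1.21 to 1.87), and 5.11 and 7.85 CPM in CA1 neurons, from 95 and 120 UMIs (1.53, 1.16 to 2.03). Only these 2 classes had an interval above 1. The granule log2 ratio of 0.34 was -0.033 among nuclei with a mitochondrial share of at most 0.1%, and the CA1 value of 0.35 was -0.0097 after thinning to 1500 UMIs. Elsewhere counts were too low to place it, with 2 and 19 UMIs in microglia and 8 and 6 in Cajal-Retzius neurons, where the ratio could lie between 0.165 and 1.90. The inducible HSP70 genes Hspa1a and Hspa1b, picked out after their values were seen, were scarcer still. Over all nuclei Hspa1a had 127 and 139 UMIs (1.16 and 1.53 CPM, ratio 1.32, 1.03 to 1.69) and Hspa1b had 101 and 111 (0.924 and 1.22 CPM, 1.32, 1.00 to 1.75). This pooling takes in the clusters without a name, and the mix of classes differed between the libraries. Pooled the same way, the 10 members gave a ratio of 1.53, above that of every class (1.13 to 1.48). The part of class mix in these pooled ratios was not tested. Hspa1a and Hspa1b are near-identical copies, and how the counting treated reads that fit either copy is not given in the sources used here.

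The HSP90 genes were past the fold in 12 of the 13 classes, all but CA2 neurons. The share of all genes past it in those 12 classes ran from 4.57% in CA1 neurons to 22.4% in microglia, and it was 1.9% in CA2 neurons. Hsp90ab1 encodes the constitutive beta form (chr17:45567775-45573271, minus strand). Its level was 346 CPM in AAV-STOP and 504 CPM in AAV-TAU in granule neurons (1.46, 1.42 to 1.50), and 287 and 417 CPM in CA1 neurons (1.45, 1.40 to 1.51). In oligodendrocytes it was 674 and 1031 CPM (1.53, 1.46 to 1.60). Excluding CA2 neurons, its log2 ratio lay between 0.46 in CA3 and 0.66 in Cajal-Retzius neurons, and each of these 12 intervals was above 1. CA2 neurons had 287 and 326 CPM (1.14, 0.993 to 1.30).

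Hsp90aa1 encodes the alpha form, which stress raises further (chr12:110690605-110702728, minus strand). Granule neurons had 156 CPM in AAV-STOP and 244 CPM in AAV-TAU (1.56, 1.50 to 1.62). Inhibitory neurons had 167 and 267 CPM (1.60, 1.50 to 1.71), and microglia 399 and 648 CPM (1.62, 1.39 to 1.91). Ordered by log2 ratio, Hsp90aa1 was the 13th of 7069 genes in granule neurons and the 14th of 7482 in inhibitory neurons. CA2 neurons again had an interval that included 1 (139 and 159 CPM, 1.15, 0.943 to 1.39). Of the UMIs of both genes, Hsp90aa1 took 31.1% in AAV-STOP and 32.6% in AAV-TAU in granule neurons (exact binomial intervals 30.4 to 31.8 and 31.9 to 33.3). In inhibitory neurons it took 33.1% and 35.6% (31.7 to 34.5 and 34.4 to 36.8), and in CA1 neurons 32.6% and 32.5%. The intervals were apart in granule neurons and overlapped in inhibitory and CA1 neurons. Reads that fit both paralogs could be split between them, and the counting rule is not given in the sources used here.

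Cacybp encodes a binding partner of S100A6 and of the ubiquitin ligase SIAH1 that also associates with HSP90 (chr1:160202367-160212875, minus strand). It had 25.3 CPM in AAV-STOP and 36.0 CPM in AAV-TAU in granule neurons (1.42, 1.29 to 1.57). Astrocytes had 36.0 and 75.7 CPM on 58 and 170 UMIs (2.10, 1.55 to 2.88), and oligodendrocytes 39.9 and 69.8 CPM on 175 and 355 UMIs (1.75, 1.45 to 2.11). The astrocyte value passed the abundance filter only through AAV-TAU, the library where it was higher. Not all glia had such a ratio. Microglia had 76.1 and 79.9 CPM (1.05, 0.712 to 1.57) and newly formed oligodendrocytes 30.4 and 22.2 CPM (0.730, 0.384 to 1.35). The oligodendrocyte log2 ratio of 0.73 was -0.27 in nuclei with a mitochondrial share of at most 0.1%, of which there were 165 and 117. In CA3 neurons the value of 0.30 was -0.10 after thinning, and in subicular or cortical neurons 0.21 became -0.026 with scaling by genes under 5 kb.

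Hspd1 encodes the ring of the mitochondrial chaperonin (chr1:55077835-55088243, minus strand) and Hspe1 its lid (chr1:55088132-55091307, plus strand). The annotated genes overlap by 112 bases on opposite strands. In granule neurons Hspd1 had 41.9 CPM in AAV-STOP and 61.8 CPM in AAV-TAU (1.48, 1.37 to 1.59). In CA3 neurons it had 32.7 and 50.7 CPM (1.55, 1.34 to 1.79), and in oligodendrocyte precursors 55.4 and 94.2 CPM (1.70, 1.33 to 2.18). Its interval was above 1 in 10 of 13 classes. The oligodendrocyte value (70.5 and 113 CPM, log2 ratio 0.64) was -0.21 in the nuclei with the least mitochondrial RNA. Hspe1 had 38.3 and 50.3 CPM in granule neurons (1.31, 1.21 to 1.43), 33.6 and 46.2 CPM in CA1 neurons (1.38, 1.23 to 1.54) and 48.4 and 71.8 CPM in oligodendrocytes (1.48, with an upper bound of 1.76). Its ratio was smaller than that of Hspd1 in granule and CA3 neurons. In CA3 neurons Hspe1 had 30.9 and 36.7 CPM (1.19, 1.01 to 1.39), and its log2 ratio of 0.21 was -0.012 under the short-gene scaling.

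Of the UMIs of the chaperonin pair, Hspe1 took 48.6% in AAV-STOP and 42.0% in AAV-TAU in CA3 neurons (44.5 to 52.7 and 38.7 to 45.4). In granule neurons it took 47.8% and 44.9% (45.8 to 49.8 and 42.9 to 46.8), and in CA1 neurons 46.4% and 46.5%. The intervals of the libraries overlapped in each of these classes.

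The order of classes was alike for most members, Hspa4l and Dnajb1 aside, with microglia, oligodendrocytes, Cajal-Retzius neurons, astrocytes and immature neurons in the upper part and pyramidal neurons in the lower part. It went with depth. Median UMIs per nucleus in AAV-STOP were 2254 in microglia and 2559 in oligodendrocytes, against 9453 in CA3 and 9942 in CA2 neurons. Counted per nucleus instead of as CPM, the order turned. CA2 and CA3 neurons had the most chaperone UMIs in AAV-STOP, 9.15 and 8.92 per nucleus, oligodendrocyte precursors had the fewest, 5.23, and microglia had 6.43. Differences in CPM between classes are therefore shares of unequal totals. The difference between the libraries was 2.11 UMIs per nucleus in granule neurons (from 6.22 to 8.33), 2.56 in CA1 neurons, 1.95 in oligodendrocytes and precursors, 1.82 in astrocytes and in CA3 neurons, 1.23 in microglia and 0.46 in CA2 neurons.

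Neuronal transcripts were also higher in AAV-TAU in the 5 glial classes. The sum of Nrgn, Hpca, Snap25, Camk2a, Chn1, Ncdn, Nefl and Thy1, 8 neuronal genes listed after seeing the data, went from 3.67 to 5.06 UMIs per oligodendrocyte nucleus, a CPM ratio of 1.49 (1.44 to 1.54). In microglia it went from 4.61 to 5.38 (1.41, 1.31 to 1.52) and in astrocytes from 3.99 to 5.20 (1.40, 1.33 to 1.48). These 3 ratios are about as large as those of the chaperones in the same classes. In oligodendrocyte precursors the ratio was 1.27 (1.21 to 1.34), beside 1.44 for the chaperones. In newly formed oligodendrocytes it was 1.39 (1.27 to 1.53), beside 1.32 (1.22 to 1.43) for the chaperones. In the large neuronal classes the neuronal transcripts differed less: the same 8 genes gave 20.8 and 20.6 UMIs per granule nucleus (1.05, 1.04 to 1.06) and 25.2 and 24.9 per CA1 nucleus (1.04, 1.03 to 1.05), where the chaperone ratio was 1.42. Other neurons lay between, with 1.12 (1.10 to 1.15) in inhibitory neurons, 1.16 (1.11 to 1.22) in immature neurons and 1.29 (1.16 to 1.43) in Cajal-Retzius neurons, where the chaperone ratio was 1.48 (1.34 to 1.63). Myelin transcripts, also in neurons, gave 4.18 and 4.63 UMIs per granule nucleus (1.18, 1.15 to 1.20). Of the myelin genes that passed the filter there, 10 of 10 were higher in AAV-TAU, against 68.1% of all genes. The myelin ratio was 1.29 (1.23 to 1.34) in CA3 neurons, beside 1.34 (1.30 to 1.37) for the chaperones. In CA2 neurons it was 1.14 (1.03 to 1.27), beside 1.13 (1.05 to 1.22). It was 1.15 in CA1, 1.14 in subicular or cortical, 1.14 in inhibitory, 1.16 in immature and 1.24 in Cajal-Retzius neurons. None of the 13 classes lacks these chaperones, so the level that free RNA alone gives could not be read from a class without them. The part of RNA from other cells in the chaperone values was not tested.

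**Figure D4:**
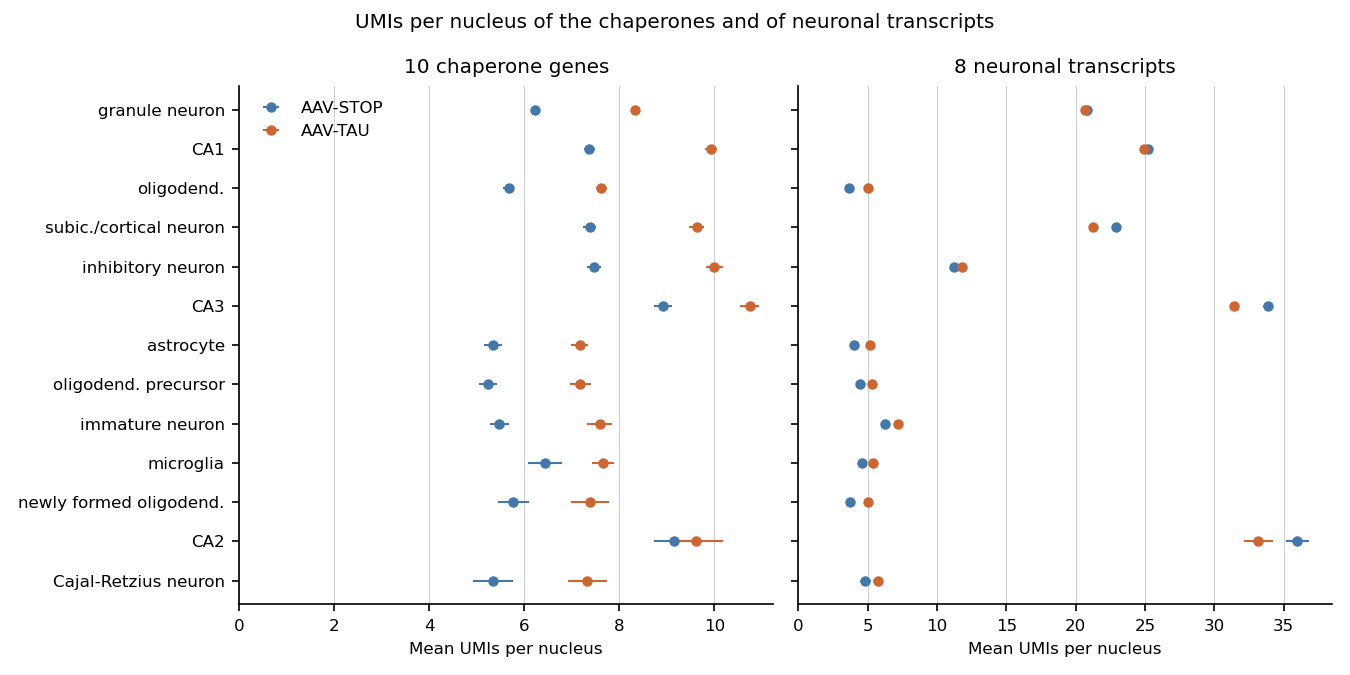
Mean UMIs per nucleus of the 10 chaperone genes (left) and of 8 neuronal transcripts (right) in 13 cell classes, blue for AAV-STOP and orange for AAV-TAU, with exact 95% Poisson intervals. The chaperone points are apart in granule neurons (6.22 and 8.33) where the neuronal transcripts coincide (20.8 and 20.6), whereas in oligodendrocytes both sets are higher in AAV-TAU.

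Transcripts of the mitochondrial genome were higher as well in granule neurons, at 14.3 and 18.4 UMIs per nucleus (CPM ratio 1.37, 1.35 to 1.38). Their CPM ratio was 1.65 in CA1, 1.44 in subicular or cortical, 1.43 in CA3 and 1.41 in inhibitory neurons. It was 1.48 in Cajal-Retzius and 1.39 in immature neurons. Oligodendrocytes had 1.36, newly formed oligodendrocytes 1.32 and oligodendrocyte precursors 1.30. Mitochondrial transcripts differed little in astrocytes (7.55 and 7.53 per nucleus, 1.07, 1.03 to 1.12), in microglia (8.32 and 7.19, 1.05, 0.989 to 1.11) and in CA2 neurons (23.4 and 22.7, 1.04, 0.995 to 1.10). In these last classes the chaperone ratios were 1.44, 1.44 and 1.13. Within nuclei of a like mitochondrial share the chaperone ratio was not constant. In granule neurons it was 1.47 (1.41 to 1.53) at a share of at most 0.1%, 1.46 at 0.1 to 0.3%, 1.28 (1.24 to 1.31) at 0.3 to 1% and 1.12 (1.03 to 1.23) above 1%. CA1 neurons gave 1.43, 1.43 and 1.16 over the lowest 3 bins. CA3 neurons gave 1.42, 1.38 and 0.986 (0.924 to 1.05). In these neurons the difference was largest where mitochondrial RNA was scarce, and in CA3 the interval included 1 at 0.3 to 1%. In AAV-STOP the chaperone level itself was higher in nuclei with more mitochondrial RNA, from 988 CPM in the lowest bin of granule neurons to 1570 CPM in the highest. Inhibitory neurons held their ratio up to 1% (1.39, 1.40 and 1.45) and had 0.961 (0.878 to 1.05) above it, on 61 and 107 nuclei. Oligodendrocytes ranged from 1.39 to 1.51 over all 4 bins, and oligodendrocyte precursors from 1.38 to 1.46 over 3. The AAV-TAU library held fewer nuclei in the lowest bin, 11.3% of granule nuclei against 25.7% in AAV-STOP.

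**Figure D5:**
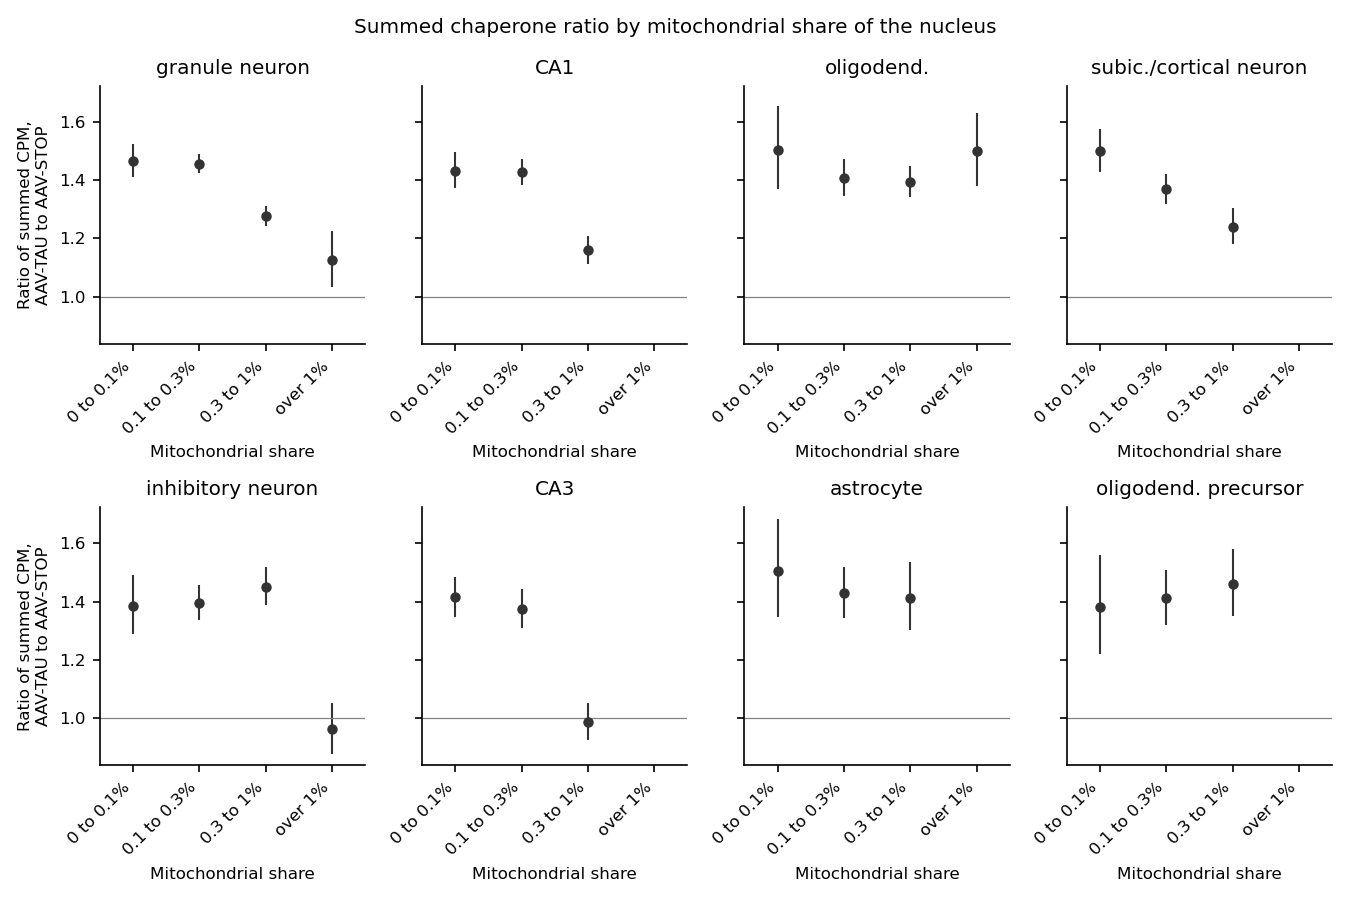
Ratio of the summed chaperone level, AAV-TAU over AAV-STOP (vertical axis, with exact 95% intervals and a line at 1), in nuclei grouped by the mitochondrial share of their UMIs, for 8 classes. Bins with under 50 nuclei in a library are left out; the ratio steps down from 1.47 to 1.12 in granule neurons and reaches 0.986 in CA3 neurons, and it is at least 1.38 in oligodendrocytes and oligodendrocyte precursors.

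To compare nuclei at equal depth, each was thinned to 1500 UMIs, and no nucleus was shallower. The share of granule nuclei with at least 3 chaperone UMIs was then 23.9% (22.7 to 25.0) in AAV-STOP and 42.9% (41.4 to 44.4) in AAV-TAU, and before thinning it was 90.6% and 97.4%. The share with 0 was 20.4% and 10.7%. Among oligodendrocytes 58.5% (56.0 to 60.9) and 79.8% (78.0 to 81.6) had at least 3 after thinning. The intervals of these shares are exact binomial intervals over the nuclei of 1 library. Nuclei are not replicates of a group, so the intervals do not cover the spread between mice. The 4 finer clusters of granule neurons gave ratios between 1.38 and 1.50, the 5 of CA1 neurons between 1.31 and 1.47, and the 4 of inhibitory neurons between 1.37 and 1.57.

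The other chaperone families were read through 7 lists that hold 91 genes in all. In granule neurons 66 of them passed the abundance filter. Of these, 62 were higher in AAV-TAU, against 68.1% of all genes, 7 were past the fold (4.75% of all genes) and 0 were past it in the other direction (0.113% of all genes), with a median log2 ratio of 0.13 beside 0.43 for the 10 members. Among the HSP90 co-chaperones 14 of 15 were higher and 3 were past the fold, against the same 4.75%: Stip1, the adaptor between HSP70 and HSP90, had 32.5 CPM in AAV-STOP and 44.6 CPM in AAV-TAU (1.37), Fkbp4 had 16.0 and 22.4 CPM, and Cdc37, which brings kinases, had 36.5 and 47.4 CPM. In TRiC and prefoldin, the cytosolic chaperonin and its helper, 12 of 12 were higher, 3 were past the fold (again beside 4.75%) and the median was 0.28. Cct6a, a ring subunit, had 57.8 and 76.3 CPM (1.32, 1.23 to 1.41), and Pfdn5 of prefoldin had 29.3 and 42.0 CPM (1.44, 1.31 to 1.57). The remaining HSP70 and exchange factor genes were higher in 9 of 9 cases with 0 past the fold, among them Hspa4 (125 and 143 CPM, 1.15, 1.09 to 1.20). J-domain genes were higher in 15 of 18 with 0 past the fold, and mitochondrial chaperones and proteases in 9 of 9 with 0 past the fold. Hspa9, the HSP70 of mitochondria, had 76.4 and 81.7 CPM in granule neurons (1.07, 1.01 to 1.14). Of the small heat shock genes that passed, 2 of 2 were higher and 1 was past the fold (4.75% of all genes). The latter was Cryab (13.8 and 23.1 CPM, 1.68, 1.47 to 1.91), which reached 20 CPM only in AAV-TAU. Cryab is also 1 of the myelin genes read above as RNA of oligodendrocytes.

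Chaperones of the endoplasmic reticulum, a further list, were mostly lower in granule neurons. Of those that passed the filter, 2 of 11 were higher (68.1% of all genes), 0 were past the fold in either direction and the median was -0.08. Pdia6, a disulphide isomerase, had 94.3 CPM in AAV-STOP and 79.1 CPM in AAV-TAU (0.839, 0.790 to 0.890). In CA1 neurons 6 of 11 were higher (66.6% of all genes), and in oligodendrocytes 3 of 12 (59.1%).

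Hsf1, which drives the heat shock response, had 35.1 and 38.5 CPM in granule neurons (1.10, 1.00 to 1.20), 33.5 and 32.8 CPM in CA1 neurons (0.980, 0.870 to 1.10) and 28.1 and 27.1 CPM in oligodendrocytes. Hsf2 had 35.4 and 37.7 CPM in granule neurons (1.07, 0.972 to 1.17). Their intervals included 1 or began just above it. Hsf4 was scarce in granule neurons, at 1.78 and 1.85 CPM, and in inhibitory neurons it had 7.40 and 12.3 CPM (1.66, 1.20 to 2.32), below the abundance filter. Hsbp1, a small protein that binds Hsf1, had 27.3 and 35.1 CPM in granule neurons (1.29, 1.17 to 1.42) and 33.3 and 58.2 CPM in oligodendrocytes (1.75, 1.43 to 2.14).

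In oligodendrocytes 55 of the 70 listed genes that passed the filter were higher (59.1% of all genes), 19 were past the fold (14%) and 1 was past it in the other direction (2.62% of all genes). The latter was Fkbp5, a co-chaperone of steroid receptors that glucocorticoids raise, with 96.1 CPM in AAV-STOP and 66.1 CPM in AAV-TAU (0.687, 0.594 to 0.795). Bag1, an exchange factor of HSP70, had 21.5 and 35.6 CPM there (1.66, 1.29 to 2.15). In CA2 neurons 6 of 21 listed genes were higher, 0 were past the fold and 2 were past it in the other direction, beside 31.4% and 10.2% of all genes in that class.

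Rab3a, Ubb, Cmss1 and Ndufa4 were among the genes that are no member and whose levels over the 13 classes ran closest to the mean of the members in AAV-STOP. Their Pearson coefficients on log2(CPM + 5) were 0.983 to 0.987 in AAV-STOP, among 8405 genes compared, and 0.979 to 0.991 in AAV-TAU. The 13 points share library and depth by class, and no test applies to them.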

How the data were processed

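The authors deposited raw UMI counts per gene and droplet barcode for each library. Cell Ranger 8.0.1 wrote the matrices per the file headers, while the submitters' processing notes name Cell Ranger 4.0, Seurat 4.4.0 and mm10. How reads shared by paralogs or overlapping genes were counted is not given in the sources used here. The files held 20265 barcodes and 130252240 UMIs for AAV-STOP and 19596 barcodes and 109428807 UMIs for AAV-TAU.

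Nuclei with under 500 UMIs, under 300 genes or over 5% mitochondrial UMIs were removed, and so were doublets marked by Scrublet at an expected rate of 0.15, 2477 and 2380 nuclei. With scanpy 1.11.5 (Python 3.11.15, leidenalg 0.10.2), nuclei were clustered on 3000 variable genes, 30 components, 15 neighbours and a resolution of 1. The chaperone genes were left out of that clustering. Clusters were named from markers, with thresholds set after marker levels were seen. Counts were summed per class and library. Log2 ratios used CPM + 5, intervals came from scipy 1.17.1, and a gene was past the fold at a log2 ratio of 0.32. A gene passed the abundance filter with at least 100 UMIs and 20 CPM in whichever library had more. Only the ratios and their intervals were checked on simulated data, with Poisson counts drawn for granule and Cajal-Retzius neurons. Those counts follow the model that the intervals assume. With 1 library per group no test was made. Spans and positions come from the GENCODE mouse annotation on GRCm38, and promoter sequences from RefSeq.

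The members, the gene lists and the rules were chosen with earlier results of these data known. Genes outside the member list were named from the lists. The genes of similar pattern were taken from the 5 with the highest Pearson coefficient to the mean of the members over the 13 classes, and 1 of these is not reported here. In all, 12 settings were tried, 1 of them added after seeing the data.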

Additional observations from a re-analysis of the deposited data

Results flagged for a closer look

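Of the clusters, 12 received no name from their markers and so entered no comparison. The 6 given here were chosen by at least 50 nuclei in both libraries and an AAV-TAU interval of the chaperone level above that of AAV-STOP. No cluster without a name that had at least 50 nuclei in both libraries was left out by the interval rule. The summed level of the 10 genes in AAV-TAU was 1475 CPM in cluster 12, 1277 CPM in cluster 14, 1480 CPM in cluster 16, 2950 CPM in cluster 23 and 1169 CPM in cluster 30, against 1063, 832, 1042, 1912 and 934 CPM in AAV-STOP. Each was higher in AAV-TAU, which the interval rule required. Cluster 17 had the highest level, 7297 CPM in AAV-TAU (543 nuclei) and 4506 CPM in AAV-STOP (117 nuclei). Its nuclei had a median of 1780 and 2452 UMIs and a median mitochondrial share of 0.629% and 1.10%. Ttr, Lars2, Camk1d, Cmss1 and Aldoa led it, and Hspa8 and Hsp90aa1 were among its 10 leading genes. The other 6, clusters 29, 31, 32, 33, 35 and 36, held 148, 120, 27, 0, 52 and 42 nuclei in AAV-STOP and 9, 3, 74, 82, 0 and 0 in AAV-TAU, too few in a library to compare. The clusters without a name were not assigned to a cell class, and the source of their chaperone level was not tested.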

How the results depend on the processing

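The number of members higher in AAV-TAU stayed within 1.5 times its value in all 150 class and setting combinations. That is a wide margin for a count of at most 10. With scaling by genes under 5 kb the count ran from 5 to 9 over the classes (median 8), and in the main setting from 6 to 10. The summed log2 ratio was above 0 in each of the 124 values computed. Scaling by genes under 5 kb, chosen after seeing the data, gave the lowest values. It took the summed log2 ratio to 0.26 in granule, 0.24 in CA1, 0.16 in CA3, 0.24 in inhibitory, 0.22 in subicular or cortical, 0.13 in immature and 0.17 in Cajal-Retzius neurons. In glia it gave 0.16 in oligodendrocytes, 0.24 in astrocytes, 0.11 in precursors, 0.33 in microglia and 0.13 in newly formed oligodendrocytes. The median over the members became 0.20 in granule, 0.18 in CA1, 0.064 in CA3, 0.19 in inhibitory and 0.19 in subicular or cortical neurons, 0.16 in oligodendrocytes and 0.088 in precursors, and its lowest value was -0.07. Of the 130 pairs of gene and class, 99 were above 0 there, against 120 without it. Those below 0 whose interval was above 1 without it were Hspa4l in granule (-0.075), CA1 (-0.027), CA3 (-0.058), inhibitory (-0.094) and subicular or cortical neurons (-0.12), Cacybp in subicular or cortical neurons (-0.026), Hspe1 in CA3 neurons (-0.012), Hspa8 in immature neurons (-0.095), and Hsph1 in astrocytes (-0.020) and immature neurons (-0.013). Median-of-ratios scaling gave summed values of 0.43 in granule, 0.43 in CA1, 0.34 in CA3, 0.47 in inhibitory and 0.42 in subicular or cortical neurons. Nuclei with a mitochondrial share of at most 0.1% gave 0.55 in granule, 0.50 in CA3, 0.47 in inhibitory and 0.58 in subicular or cortical neurons and 0.59 in oligodendrocytes, and a median of 0.45 in CA3 neurons. There 74 of 80 pairs were above 0, and those below it with an interval above 1 over all nuclei were Dnajb1 in granule neurons (-0.033) and, in oligodendrocytes, Cacybp (-0.27) and Hspd1 (-0.21). Thinning gave 0.51 in CA3, 0.57 in immature and 0.29 in CA2 neurons, with 112 of 130 pairs above 0, and values below 0, among pairs with an interval above 1 before it, for Cacybp in CA3 (-0.10), Dnajb1 in CA1 (-0.0097) and Hspa8 in CA2 neurons (-0.025). With marked doublets kept the sum was 0.53 in granule and 0.40 in CA2 neurons, and with at least 2000 UMIs it was 0.44 in microglia and 0.49 in oligodendrocytes. The short-gene scaling divides the values of a class by the median ratio of its genes under 5 kb. It therefore lowers them where those genes were higher in AAV-TAU. The share of all genes above 0 was not computed under the short-gene scaling, the mitochondrial limit or thinning. The pair counts under these settings therefore stand without a background. The cause of the shifts under any setting was not tested.

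No paired analysis was possible because each group has 1 library. Leaving out a library was not possible either. The mitochondrial limit was not run in immature neurons, microglia, newly formed oligodendrocytes, CA2 and Cajal-Retzius neurons, where a library had under 50 nuclei, and the coarser resolution gave no CA2 class. Depth limits Dnajb1 in every class and the chaperonin genes and Cacybp in the smaller classes. The mice of a library cannot be told apart from the virus they received.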
